A study of Mus musculus with 6 samples.

Results

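The genes described here are 37 genes that give an epithelial cell its junctions, its keratin filaments, its polarity and part of its regulation. They were chosen by name, from 6 classes: 3 genes of adherens junctions and cell adhesion, 10 of tight junctions, 8 of desmosomes, 4 simple epithelial keratins, 4 polarity genes and 8 regulators. All 37 were found among the 54331 genes quantified, and 32 of them had a mean of at least 1 TPM (the amount of a gene's RNA per transcript length, scaled to the same total in every well) over the wells, the minimum for a test.

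RNA of 3 OSKA + 4OHT wells and 3 OSKA − 4OHT wells was sequenced 10 days post infection (dpi), 6 libraries in all. Both groups were male mouse embryonic fibroblasts (MEFs) from E13.5 embryos of a mixed C57BL/6, DBA/2 and ICR background that carried the Oct4-EGFP transgene. Both had received the retroviral reprogramming factors Oct4, Sox2 and Klf4 (OSK) together with AKT-MER, an AKT kinase fused to a hormone-binding domain that 4-hydroxytamoxifen (4OHT) switches on. From 3 dpi, OSKA + 4OHT wells were given 4OHT at 1 µM, and OSKA − 4OHT wells were given the ethanol vehicle. No library of cells without AKT-MER was analysed here, so in these RNA data an effect of 4OHT itself and one of AKT-MER activation cannot be told apart. The cells of a well were sequenced in bulk, so fewer cells of a type and less RNA per cell cannot be told apart either.

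Fibroblasts are mesenchymal cells, held to their neighbours loosely and filled with vimentin filaments, whereas pluripotent stem cells grow as epithelial sheets. Reprogramming therefore passes through a mesenchymal-to-epithelial transition, in which E-cadherin and other junction proteins appear and mesenchymal genes are turned down. Adherens junctions join the actin belts of neighbouring cells, tight junctions seal the space between them, and desmosomes tie their keratin filaments together. Transcription factors of the SNAIL and ZEB families repress some of these genes through a short DNA element, the E2-box.

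The E2-box was looked for in the promoters of the members, since it is the element through which some of these genes are known to be repressed. Promoters were taken from RefSeq (GRCm38.p6) as the 300 bases from 250 before to 50 after each annotated transcript start. The desmosomal cadherin genes *Dsg2* and *Dsc2* were left out beforehand because of the chromosome they lie on. Of the other members, 21 matched, with 28 promoters, some of which overlap. The members and the promoters they are compared with may therefore not have been filtered alike. The called members *Cdh1*, *Pkp1* and *St14* are not among the 21. An E2-box, searched for as CAGGTG on both strands, was present in 22 of the 28 member promoters (78.6%) and in at least 1 promoter of 18 of the 21 genes (85.7%). The letters were in 20.2% of all 32851 promoters and, counted by gene, in 20.6% of the 10551 tested genes with a promoter. For comparison, the GC box GGGCGG was in 71.4% of the member promoters, 35.7% of all promoters and 60.9% of those of tested genes, and the grainyhead motif AACNNGTT was in 2 of the 28 (7.14%), against 4.20% of all promoters. The 5 promoters below, read 5′ to 3′ along the gene's own strand, are shown because they belong to members whose values are described next, and E2-boxes are in capitals. The promoter of *Epcam* (chr17:87635729-87636028, plus strand) holds 2 E2-boxes, which begin at -187 and -19 from the transcript start. Those of the adjacent keratin genes *Krt8* (chr15:102004293-102004592, minus strand) and *Krt18* (chr15:102027966-102028265, plus strand) hold 1 each, at -111 and -214. The promoter of *Cldn4* (chr5:134946885-134947184, minus strand) holds 2, at -14 and 11. In that of *Spint1* (chr2:119237110-119237409, plus strand) the letters are not present. A match of letters is a description of the sequence and shows no binding.
Epcam: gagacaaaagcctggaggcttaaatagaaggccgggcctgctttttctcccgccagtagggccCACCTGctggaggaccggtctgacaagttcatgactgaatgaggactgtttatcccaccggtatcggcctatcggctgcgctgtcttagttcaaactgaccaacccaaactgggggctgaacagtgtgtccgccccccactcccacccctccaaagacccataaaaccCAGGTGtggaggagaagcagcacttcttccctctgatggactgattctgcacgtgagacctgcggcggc
Krt8: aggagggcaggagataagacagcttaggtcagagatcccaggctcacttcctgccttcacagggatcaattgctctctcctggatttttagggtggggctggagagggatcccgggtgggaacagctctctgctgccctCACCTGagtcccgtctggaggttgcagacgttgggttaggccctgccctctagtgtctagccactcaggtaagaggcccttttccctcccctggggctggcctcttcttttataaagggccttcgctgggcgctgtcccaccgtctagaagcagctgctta
Krt18: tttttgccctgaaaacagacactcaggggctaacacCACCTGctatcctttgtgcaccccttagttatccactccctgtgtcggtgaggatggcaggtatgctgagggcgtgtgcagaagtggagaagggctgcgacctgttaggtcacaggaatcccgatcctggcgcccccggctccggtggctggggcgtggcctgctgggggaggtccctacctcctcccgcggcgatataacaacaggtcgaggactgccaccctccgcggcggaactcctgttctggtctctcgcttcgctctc
Cldn4: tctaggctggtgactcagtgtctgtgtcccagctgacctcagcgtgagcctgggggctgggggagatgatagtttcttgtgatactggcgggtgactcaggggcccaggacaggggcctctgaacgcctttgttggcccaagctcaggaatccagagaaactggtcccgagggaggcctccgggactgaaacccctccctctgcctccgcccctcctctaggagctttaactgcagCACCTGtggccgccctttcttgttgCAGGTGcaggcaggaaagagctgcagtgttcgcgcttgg
Spint1: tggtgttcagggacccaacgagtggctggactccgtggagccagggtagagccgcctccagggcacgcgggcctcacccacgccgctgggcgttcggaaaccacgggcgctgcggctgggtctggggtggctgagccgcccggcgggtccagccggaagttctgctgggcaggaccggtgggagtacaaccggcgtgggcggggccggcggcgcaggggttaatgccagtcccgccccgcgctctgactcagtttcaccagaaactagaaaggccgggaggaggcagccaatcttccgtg

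Of the 32 members tested, 6 rose in the OSKA + 4OHT group: *Cdh1*, *Epcam*, *Pkp1*, *Krt8*, *Spint1* and *St14*. None fell. When 1 well was left out, between 2 and 5 members were called higher, and with the replicate block 1 was. Of all 32, 14 had an unadjusted p-value under 0.05, and 1 of these, *Perp*, was lower in OSKA + 4OHT wells (unadjusted p = 0.0150, limma). An unadjusted p-value under 0.05 was found for 3281 of all 15382 tested genes. A gene was called when its limma adjusted p-value was under 0.05 and its log2 fold change was above 1 in size, and at this rule 2.87% of all 15382 tested genes were called higher and 1.37% lower. In 16 of the 32, all 3 OSKA + 4OHT wells lay above all 3 OSKA − 4OHT wells, which held for 18.1% of all tested genes. In 1 member, *Perp*, they all lay below, as in 10.0% of all tested genes, and in the other 15 the groups overlapped. The median log2 fold change of the 32 members was 0.98, beside 0.14 for all tested genes, and 28 of the 32 values were above 0, as were 9129 of all 15382. Fold changes are differences of log2(TPM + 0.5), which understate the change of low genes. *Krt7*, *Tjp3*, *Marveld3*, *Grhl2*, *Rab25* and *Crb3* averaged under 1 TPM in OSKA − 4OHT wells. They reached the minimum for a test only through the OSKA + 4OHT wells, and *Krt7*, *Tjp3* and *Marveld3* are among the 16. A minimum mean of 5 TPM kept 19 members and left out these genes and others, among them *Pkp2*, *Esrp1* and *Esrp2*. The median of the 19 was 0.96, beside 0.14 for all genes tested at that minimum.

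**Figure D1:**
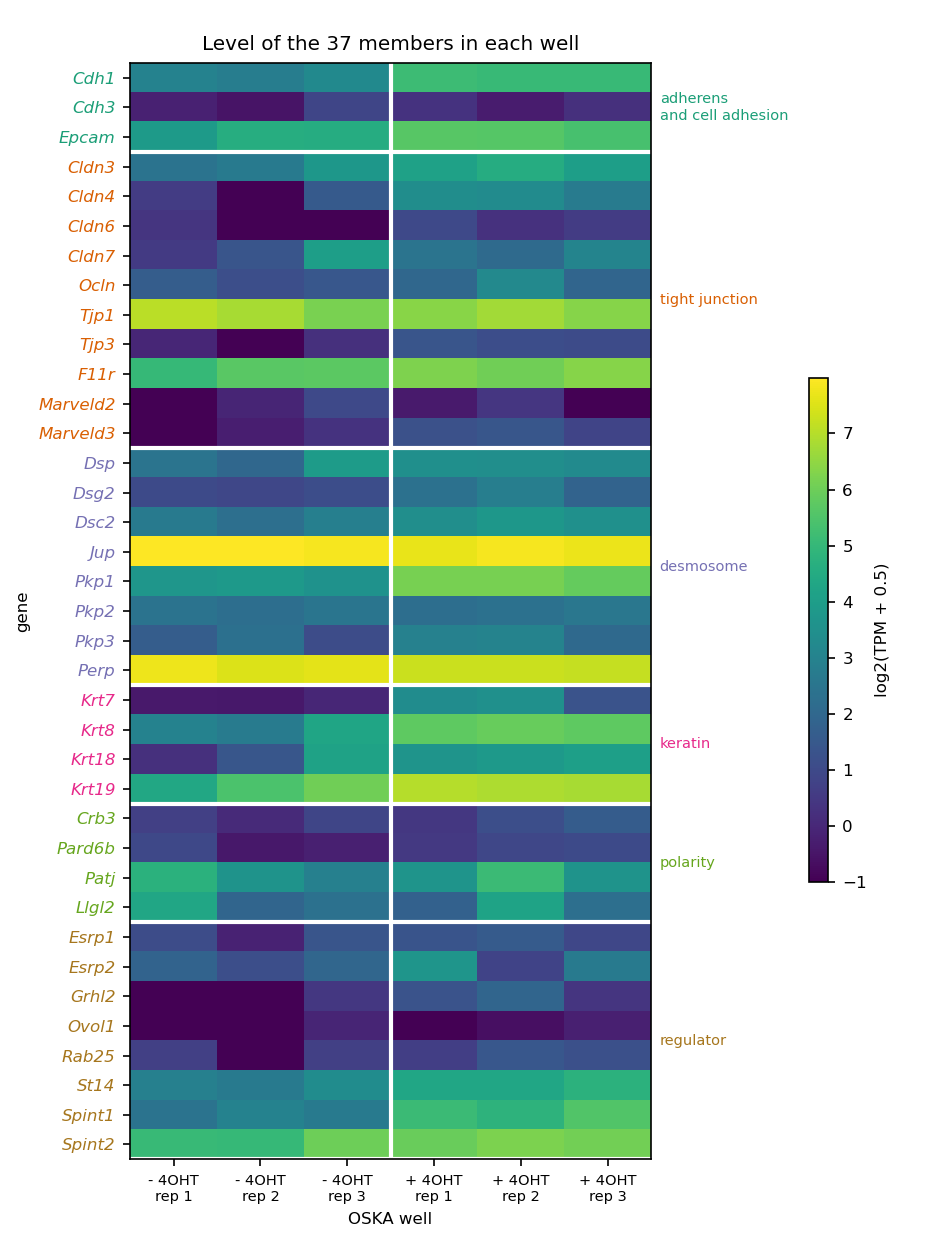
Level of each of the 37 genes (rows, coloured by class) in each of the 6 wells (columns), as log2(TPM + 0.5). *Jup*, *Perp* and *Tjp1* were high in all 6 wells, whereas *Cdh1*, *Pkp1*, *Krt8* and *Spint1* changed level between the groups.

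Calls are given here by class, beside 2.87% of all tested genes called higher, and a difference between classes was not tested. Counts of unadjusted p-values under 0.05 stand beside 3281 of all 15382 tested genes. Both tested genes of the adherens and cell adhesion class were called, as were 1 of 8 desmosomal genes, 1 of 4 keratins and 2 of 7 regulators. None of the 8 tight junction genes was called by limma (3 had an unadjusted p-value under 0.05), and their median log2 fold change was 1.13. In 6 of them the OSKA + 4OHT wells lay above without overlap, beside 18.1% of all tested genes. Of these 6, *Tjp3* and *Marveld3* reached the minimum for a test only through the OSKA + 4OHT wells. Of the 3 tested polarity genes none was called (0 had an unadjusted p-value under 0.05), the groups overlapped in each, and the median was 0.36. Without OSKA − 4OHT replicate 3 the median of the polarity genes was -0.06. The medians were 1.63 for adherens and cell adhesion genes, 0.78 for desmosomal genes, 2.20 for keratins and 0.97 for regulators.

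**Figure D2:**
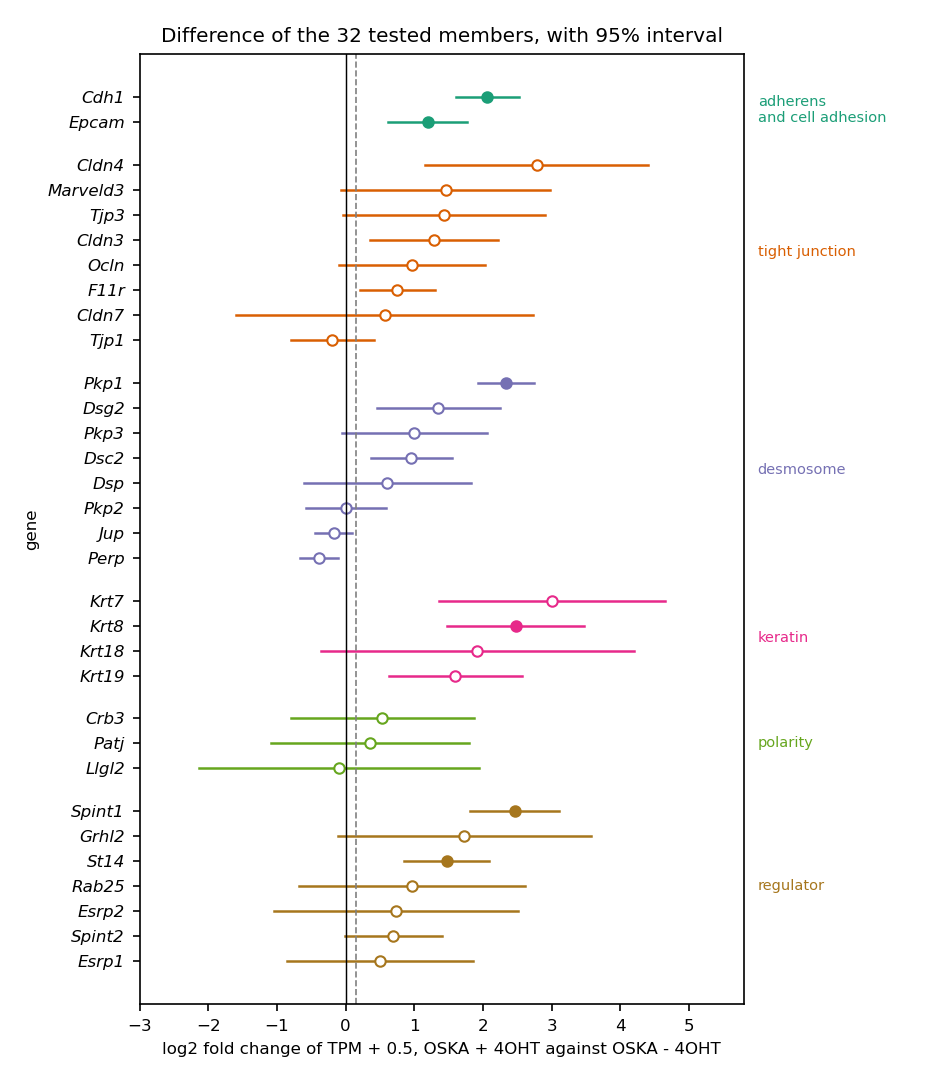
Log2 fold change of TPM + 0.5 in OSKA + 4OHT against OSKA − 4OHT wells for the 32 tested genes, by class, with the 95% interval of limma. Filled points were called, and the dashed line is the median of all tested genes, 0.14. The intervals of *Cdh1* and *Pkp1* lie far above 0, whereas those of *Cldn7*, *Krt18* and *Llgl2* span several units.

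*Cdh1* encodes E-cadherin, the adhesion receptor of epithelial adherens junctions. It measured 7.50, 6.51 and 9.17 TPM in the OSKA − 4OHT wells and 35.2, 33.1 and 32.6 TPM in the OSKA + 4OHT wells. The OSKA + 4OHT wells were close to each other and all far above the others. The mean rose from 7.73 ± 1.35 to 33.6 ± 1.41 TPM (SD, n = 3 wells), 4.35-fold, with a log2 fold change of 2.06 ± 0.19 (SE) and an adjusted p-value of 0.00471 (limma). *Cdh1* was called whichever well was left out (adjusted p between 0.0251 and 0.0433, limma). *Epcam*, a homophilic adhesion molecule of epithelial and pluripotent cells, measured 14.6, 23.9 and 23.3 TPM in OSKA − 4OHT wells. In OSKA + 4OHT wells it measured 50.1, 49.3 and 41.0 TPM. The groups did not overlap, and the lowest value was that of OSKA − 4OHT replicate 1. Its log2 fold change was 1.19 ± 0.24 (SE), with an adjusted p-value of 0.0416 (limma). This call was lost when any 1 of the 6 wells was left out (adjusted p between 0.0564 and 0.152, limma). *Cdh3*, which encodes P-cadherin of basal epithelial cells, was not tested. It measured 0.39, 0.19 and 1.34 TPM in OSKA − 4OHT wells and 0.74, 0.30 and 0.69 TPM in OSKA + 4OHT wells. Its gene ends 46.1 kb before *Cdh1* on chromosome 8 (GRCm38), and its groups overlapped, whereas those of *Cdh1* did not.

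Cadherins are exchanged in the transition, so N-cadherin (*Cdh2*), the cadherin of mesenchymal cells, was set beside E-cadherin. *Cdh2* measured 50.1, 46.8 and 36.7 TPM in OSKA − 4OHT wells and 22.8, 21.7 and 24.3 TPM in OSKA + 4OHT wells. It was lower in all OSKA + 4OHT wells. Its log2 fold change was -0.93 and its adjusted p-value 0.0366 (limma), so it missed the fold threshold and was not called. Within a well, the ratio of *Cdh1* to *Cdh2*, both as TPM, was 0.150, 0.139 and 0.250 without 4OHT and 1.55, 1.52 and 1.34 with it. N-cadherin mRNA was thus the more abundant per transcript length in every OSKA − 4OHT well, and E-cadherin mRNA in every OSKA + 4OHT well. The osteoblast cadherin gene *Cdh11* fell, with a log2 fold change of -1.34 (adjusted p = 0.0184, limma). It was called in only 1 of the 6 fits that left out a well (adjusted p between 0.0393 and 0.0888, limma).

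**Figure D3:**
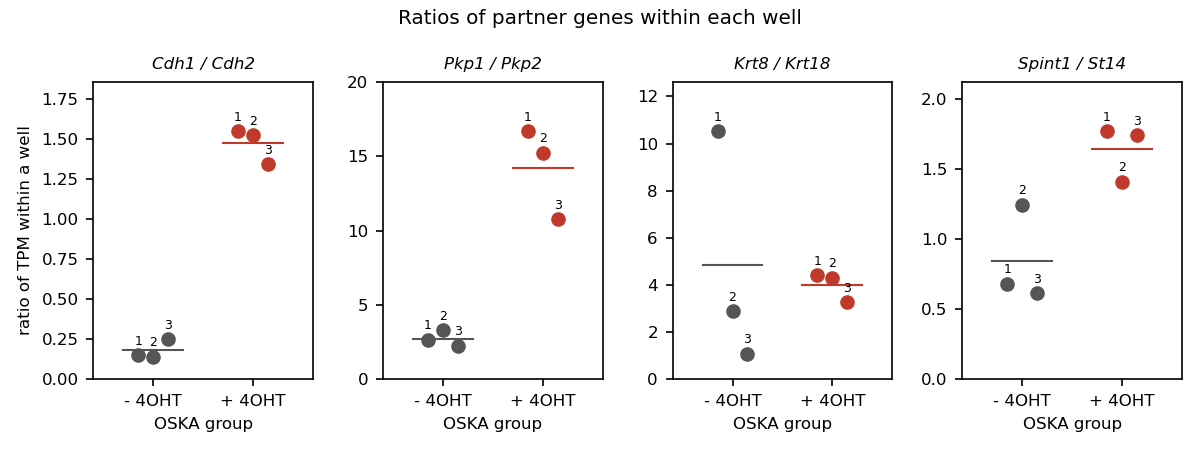
Ratio of the TPM values of 2 genes within each well, in OSKA − 4OHT and OSKA + 4OHT wells, with the replicate number above each point and a line at the group mean. *Cdh1* over *Cdh2* and *Pkp1* over *Pkp2* separate the groups, whereas *Krt8* over *Krt18* runs from 1.09 to 10.5 among the OSKA − 4OHT wells.

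The desmosomal genes included the member with the smallest adjusted p-value. *Pkp1* encodes plakophilin 1, an armadillo protein of the desmosomal plaque that is most abundant in stratified epithelia. It measured 12.8, 14.1 and 11.5 TPM in OSKA − 4OHT wells and 71.0, 71.0 and 58.0 TPM in OSKA + 4OHT wells. Each OSKA + 4OHT well was several times above each OSKA − 4OHT well. The mean rose from 12.8 ± 1.30 to 66.7 ± 7.52 TPM (SD, n = 3 wells), with a log2 fold change of 2.34 ± 0.17 (SE) and an adjusted p-value of 0.00347 (limma), and it was called whichever well was left out. Its relative *Pkp2*, the plakophilin of simple epithelia and heart, measured 4.81, 4.26 and 5.12 TPM in OSKA − 4OHT wells and 4.25, 4.66 and 5.38 TPM in OSKA + 4OHT wells. The groups of *Pkp2* overlapped, and its log2 fold change of 0.01 had a 95% interval from -0.58 to 0.59. *Pkp2* lay slightly below 0 with other scalings between wells. The ratio of *Pkp1* to *Pkp2* within a well was 2.65, 3.30 and 2.24 without 4OHT and 16.7, 15.3 and 10.8 with it. *Pkp3*, the plakophilin found in most desmosomes, measured 2.66, 4.46 and 1.62 TPM in OSKA − 4OHT wells. In OSKA + 4OHT wells it measured 7.14, 7.66 and 3.75 TPM, so that the groups overlapped by a single well.

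Of the desmosomal cadherins, *Dsc2* (desmocollin 2) measured 5.85, 4.36 and 6.92 TPM in OSKA − 4OHT wells and 10.4, 13.1 and 10.8 TPM in OSKA + 4OHT wells. *Dsg2* (desmoglein 2) averaged 1.52 ± 0.14 and 4.82 ± 1.77 TPM (SD, n = 3 wells). For both, the groups did not overlap, yet neither was called. Their log2 fold changes were 0.96 (adjusted p = 0.0805, limma) and 1.35 (adjusted p = 0.0977, limma). *Dsp* encodes desmoplakin, which anchors keratin filaments to the plaque. It measured 4.94, 3.48 and 14.95 TPM in OSKA − 4OHT wells and 10.6, 10.3 and 9.43 TPM in OSKA + 4OHT wells. Its highest value of all was in OSKA − 4OHT replicate 3, and without that well its log2 fold change was 1.19 (adjusted p = 0.0963, limma) in place of 0.61. Without replicate 2 of that group it was 0.21.

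*Jup* and *Perp* were the 2 most abundant members, and neither was called. *Jup* encodes plakoglobin, which is shared by desmosomes and adherens junctions, including those of fibroblasts. It measured 254, 251 and 230 TPM in OSKA − 4OHT wells and 204, 235 and 214 TPM in OSKA + 4OHT wells, and the groups overlapped. *Perp*, a p53 target whose product is a membrane protein of desmosomes, measured 216, 182 and 195 TPM in OSKA − 4OHT wells. In OSKA + 4OHT wells it measured 154, 153 and 146 TPM, below every OSKA − 4OHT well. Its log2 fold change of -0.38 was not called (adjusted p = 0.124, limma). Because of these genes, the summed level of the 8 desmosomal genes, between 465 and 502 TPM in OSKA − 4OHT wells and between 450 and 501 TPM in OSKA + 4OHT wells, overlapped between the groups.

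The 4 keratins of simple epithelia had the highest median of the classes. *Krt8*, the type II keratin of simple epithelia, measured 7.34, 6.11 and 19.2 TPM in OSKA − 4OHT wells and 53.2, 59.7 and 54.1 TPM in OSKA + 4OHT wells. The groups did not overlap, with OSKA − 4OHT replicate 3 the highest of its group. The log2 fold change was 2.48 ± 0.41 (SE), with an adjusted p-value of 0.0265 (limma). *Krt8* was still called without OSKA − 4OHT replicate 3 (adjusted p = 0.0245, limma) and lost the call when any other well was left out (adjusted p up to 0.125, limma). *Krt18*, the type I partner of *Krt8* in the filament, measured 0.70, 2.12 and 17.7 TPM in OSKA − 4OHT wells and 12.1, 13.9 and 16.6 TPM in OSKA + 4OHT wells. In OSKA − 4OHT replicate 3 it was above every other well, so the groups overlapped, and its log2 fold change of 1.92 was not called (adjusted p = 0.311, limma). Without that well the log2 fold change of *Krt18* was 3.04 (adjusted p = 0.0506, limma), and without replicate 1 of that group it was 1.08 (adjusted p = 0.550, limma). The genes lie 23.7 kb apart on chromosome 15 and are read in opposite directions. The ratio of *Krt8* to *Krt18*, both as TPM, was 10.5, 2.88 and 1.09 in OSKA − 4OHT wells and 4.40, 4.31 and 3.27 in OSKA + 4OHT wells. It lay in a narrow range with 4OHT and in a wide one without it.

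*Krt19*, the smallest type I keratin, was the most abundant keratin member in every well. It measured 20.5, 42.8 and 65.5 TPM in OSKA − 4OHT wells and 127, 117 and 111 TPM in OSKA + 4OHT wells. The groups did not overlap, and its log2 fold change of 1.60 was not called (adjusted p = 0.0761, limma). *Krt7*, a type II keratin of ducts and other simple epithelia, measured 0.26, 0.25 and 0.49 TPM in OSKA − 4OHT wells. In OSKA + 4OHT wells it measured 9.91, 10.9 and 1.93 TPM. OSKA + 4OHT replicate 3 was far below the other OSKA + 4OHT wells but above all OSKA − 4OHT wells. *Krt7* was not called (adjusted p = 0.0594, limma), but it was called without OSKA + 4OHT replicate 3 (adjusted p = 0.0227, limma). The summed TPM of the 4 keratins was 28.8, 51.2 and 103 in OSKA − 4OHT wells and 203, 201 and 183 in OSKA + 4OHT wells, without overlap.

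Among the tight junction genes, claudins form the seal itself. *Cldn4*, a claudin that limits the passage of sodium, measured 1.02, 0 and 2.39 TPM in OSKA − 4OHT wells and 10.1, 9.65 and 6.12 TPM in OSKA + 4OHT wells. Its neighbour *Cldn3*, 39.3 kb away on chromosome 5, measured 4.81, 6.07 and 13.1 TPM in OSKA − 4OHT wells and 17.3, 23.3 and 15.8 TPM in OSKA + 4OHT wells. Neither overlapped between the groups, and in both OSKA − 4OHT replicate 3 was the highest of its group. Their log2 fold changes of 2.78 (adjusted p = 0.0689, limma) and 1.29 (adjusted p = 0.122, limma) were not called. *Cldn7*, a claudin of many simple epithelia, measured 0.93, 2.07 and 15.9 TPM in OSKA − 4OHT wells and 4.99, 3.84 and 7.82 TPM in OSKA + 4OHT wells. Its highest value was in OSKA − 4OHT replicate 3, and without OSKA − 4OHT replicate 1 the sign of its log2 fold change of 0.57 turned to -0.16. Without replicate 3 it was 1.61 (adjusted p = 0.162, limma). *Cldn6*, a claudin of embryonic epithelia and pluripotent cells, was at most 1.48 TPM in any well and was not tested.

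The other membrane proteins of the tight junction are single-pass or four-span proteins that sit beside the claudins. *F11r*, which encodes the junctional adhesion molecule JAM-A, measured 32.1, 51.0 and 52.0 TPM in OSKA − 4OHT wells and 75.9, 65.95 and 81.8 TPM in OSKA + 4OHT wells. *Ocln* (occludin) measured 2.67, 1.71 and 2.21 TPM in OSKA − 4OHT wells and 3.49, 8.78 and 3.35 TPM in OSKA + 4OHT wells. The groups did not overlap for either gene, and the mean of *Ocln* rested largely on OSKA + 4OHT replicate 2. Their log2 fold changes were 0.75 (adjusted p = 0.122, limma) and 0.97 (adjusted p = 0.274, limma), and neither was called. *Marveld3*, a relative of occludin, and the scaffold gene *Tjp3* (ZO-3) averaged 0.37 and 0.39 TPM in OSKA − 4OHT wells and 1.75 and 1.77 TPM in OSKA + 4OHT wells. Neither overlapped between the groups or was called. *Marveld2* (tricellulin), the gene next to *Ocln*, was at most 1.47 TPM and was not tested. *Tjp1*, which encodes ZO-1, a scaffold that fibroblasts also use at their adherens junctions, measured 133, 111 and 72.8 TPM in OSKA − 4OHT wells. In OSKA + 4OHT wells it measured 83.0, 107 and 80.5 TPM. Its groups overlapped, and its log2 fold change was -0.19 (95% interval from -0.80 to 0.41).

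Polarity proteins set the apical and basal sides of an epithelial cell. *Crb3*, which encodes the apical determinant Crumbs 3, averaged 0.99 ± 0.40 and 1.73 ± 0.87 TPM (SD, n = 3 wells), and *Pard6b*, of the apical PAR complex, was at most 1.53 TPM in any well and was not tested. *Patj*, a scaffold of the Crumbs complex, measured 26.4, 11.9 and 7.07 TPM in OSKA − 4OHT wells and 12.0, 34.5 and 11.8 TPM in OSKA + 4OHT wells. *Llgl2*, a basolateral determinant of the Scribble group, measured 19.5, 3.28 and 4.67 TPM in OSKA − 4OHT wells and 2.99, 18.0 and 4.42 TPM in OSKA + 4OHT wells. Both genes were high in the same 2 wells, OSKA − 4OHT replicate 1 and OSKA + 4OHT replicate 2, 1 of each group. The 95% interval of the log2 fold change ran from -1.08 to 1.80 for *Patj* and from -2.14 to 1.94 for *Llgl2*.

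The called regulators were a membrane protease and its inhibitor. *St14* encodes matriptase, a serine protease of epithelial surfaces, and *Spint1* encodes HAI-1, the inhibitor that binds it. *Spint1* measured 4.84, 7.45 and 6.06 TPM in OSKA − 4OHT wells and 34.6, 27.5 and 46.7 TPM in OSKA + 4OHT wells. *St14* measured 7.10, 5.98 and 9.89 TPM in OSKA − 4OHT wells and 19.5, 19.5 and 26.8 TPM in OSKA + 4OHT wells. Neither overlapped between the groups, and both were highest in OSKA + 4OHT replicate 3. The log2 fold change of *Spint1* was 2.46 ± 0.27 (SE; adjusted p = 0.00744, limma), and the call was lost only without OSKA + 4OHT replicate 1 (adjusted p = 0.0595, limma). That of *St14* was 1.47 ± 0.26 (SE; adjusted p = 0.0291, limma), and the call was lost when any 1 of the 6 wells was left out (adjusted p between 0.0504 and 0.105, limma). The ratio of inhibitor to protease mRNA, both as TPM, was 0.68, 1.25 and 0.61 in OSKA − 4OHT wells and 1.77, 1.41 and 1.74 in OSKA + 4OHT wells, without overlap. *Spint2*, which encodes the related inhibitor HAI-2, measured 32.8, 32.2 and 64.4 TPM in OSKA − 4OHT wells and 60.2, 73.7 and 66.4 TPM in OSKA + 4OHT wells. Its groups overlapped through OSKA − 4OHT replicate 3 alone, and without that well it was called (log2 fold change 1.02, adjusted p = 0.0451, limma).

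The transcription and splicing regulators among the members were low. *Esrp1* and *Esrp2*, which encode the splicing factors that produce epithelial isoforms, overlapped between the groups. *Esrp2* measured 3.16, 1.73 and 3.38 TPM in OSKA − 4OHT wells and 12.3, 1.26 and 5.93 TPM in OSKA + 4OHT wells, so that both the highest and the lowest value were in OSKA + 4OHT wells. *Esrp2* shares 219 bases on the opposite strand with *Nfatc3*, which averaged 30.2 TPM, and the strand setting of the quantification is not given in the sources used here. *Grhl2*, a grainyhead factor that activates junction genes, was listed at 0 in OSKA − 4OHT replicates 1 and 2. It measured 0.87 TPM in replicate 3 and 1.98, 3.33 and 0.82 TPM in OSKA + 4OHT wells. It shares 124 bases on the opposite strand with *Gm16136*, which averaged 5.35 TPM, more than *Grhl2* in any well. *Rab25*, a GTPase of epithelial recycling endosomes, averaged 0.75 and 1.70 TPM with overlapping groups, and *Ovol1*, a zinc finger repressor of mesenchymal genes, was at most 0.45 TPM and was not tested.

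One OSKA − 4OHT well differed from the other wells of its group in these genes. Replicate 3 was the highest of the OSKA − 4OHT wells for 22 of the 32 tested members (68.8%), for 21 of the 46 tested among further epithelial genes outside the 37, and for 32.7% of all tested genes. This held for 4 of 4 keratins, 6 of 7 regulators and 6 of 8 tight junction genes, for 4 of 8 desmosomal genes, and for 1 each of the 2 adherens and the 3 polarity genes. *Krt18* was 12.6-fold, *Cldn7* 10.6-fold and *Dsp* 3.55-fold above the mean of replicates 1 and 2. Named after their values were seen, the epithelial factor gene *Elf3* (9.75 TPM, against 0.52 and 0.20 TPM), *Cldn2* (21.1 TPM, listed at 0 in the others), *Krt5* (2.89 TPM, listed at 0 in the others) and the muscle filament gene *Des* (10.4 TPM, against 3.42 and 0.65 TPM) were also highest there among the OSKA − 4OHT wells. Without this well, the median log2 fold change of the members was 1.27 in place of 0.98, and 5 members were called in place of 6. A value of 0 was listed for 4, 6 and 1 of the members in OSKA − 4OHT replicates 1, 2 and 3, and for 1, 0 and 1 in the OSKA + 4OHT wells. The number of genes above 0 over the whole transcriptome was 15814, 17692 and 16906 in OSKA − 4OHT wells and between 17578 and 18230 in OSKA + 4OHT wells, and TPM values keep no sequencing depth. The part of depth in these low values was not tested.

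**Figure D4:**
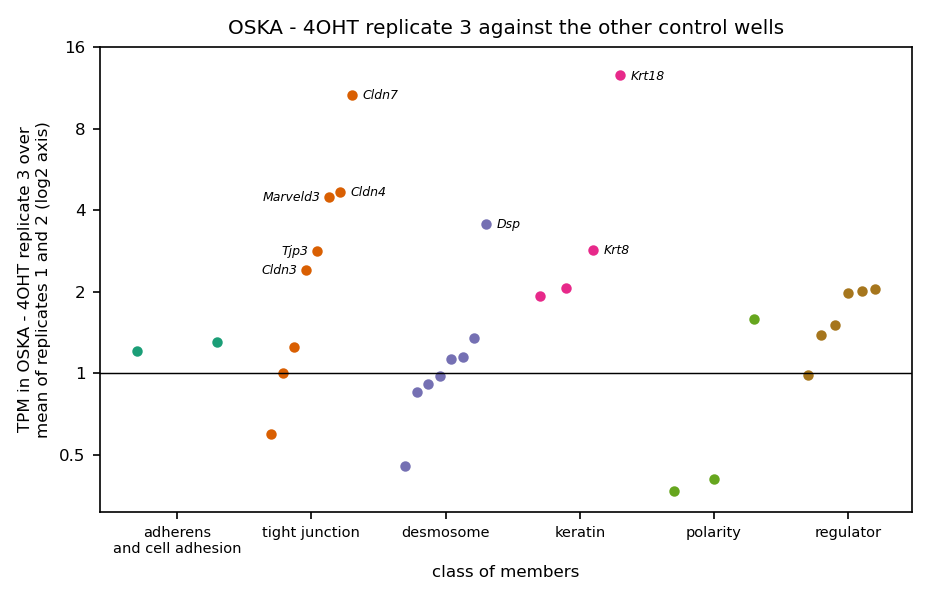
TPM in OSKA − 4OHT replicate 3 divided by the mean of replicates 1 and 2, on a log2 axis, for 31 of the 32 tested genes by class (*Grhl2* was listed at 0 in both other wells). Most keratins, regulators and tight junction genes lie above 1, with *Krt18* at 12.6 and *Cldn7* at 10.6.

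The 61 further genes of the same structures and of epithelial regulation were read in the same way. Of these, 46 were tested, 4 were called higher (beside 2.87% of all tested genes) and none lower by limma. An unadjusted p-value under 0.05 in either direction was found for 15 of the 46, and for 3281 of all 15382 tested genes. The median log2 fold change of the 46 was 0.20, beside 0.14 for all tested genes. Without OSKA − 4OHT replicate 3 these medians were 0.31 and 0.15. In 13 of the 46 (28.3%) the OSKA + 4OHT wells lay above without overlap, beside 18.1% of all tested genes, and in 2 below. Among the 13, *Krt17*, *Evpl* and *Grhl3* reached the minimum for a test only through the OSKA + 4OHT wells. The 4 called were *Krt6a* and *Krt80*, which encode keratins of stratified epithelia, *Grhl3*, which encodes a grainyhead factor of surface epithelium, and *Cd24a*, which encodes a surface glycoprotein. *Krt6a* measured 1.94, 2.46 and 2.67 TPM in OSKA − 4OHT wells and 15.9, 18.6 and 13.7 TPM in OSKA + 4OHT wells. *Cd24a* measured 233, 181 and 193 TPM in OSKA − 4OHT wells and 485, 449 and 477 TPM in OSKA + 4OHT wells. Neither overlapped between the groups, and both were called whichever well was left out. Their log2 fold changes were 2.54 (adjusted p = 0.00502, limma) and 1.23 (adjusted p = 0.00646, limma). *Grhl3* had a log2 fold change of 2.80 (adjusted p = 0.0184, limma) and kept its call in 4 of the 6 fits that left out a well. *Krt80*, with 1.72 (adjusted p = 0.0457, limma), kept it in 1. Of the 9 further polarity genes tested, none was called (0 had an unadjusted p-value under 0.05) and the groups overlapped in every one.

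The repressors of epithelial genes had a median log2 fold change of -0.35. Of 6 such genes tested, none was called by limma. In 2 the unadjusted p-value was under 0.05, as in 3281 of all 15382 tested genes. In 3 the groups did not overlap, with OSKA + 4OHT wells below, which held for 10.0% of all tested genes. *Zeb2* measured 16.4, 17.1 and 15.2 TPM in OSKA − 4OHT wells and 12.1, 9.94 and 10.4 TPM in OSKA + 4OHT wells. The values of *Snai2* were 14.5, 12.7 and 17.0 TPM and 9.95, 10.3 and 9.42 TPM, and those of *Twist1* were 27.4, 30.2 and 32.5 TPM and 22.6, 25.4 and 19.5 TPM. These were the 3 genes without overlap, with log2 fold changes of -0.57, -0.54 and -0.41 (adjusted p = 0.132, 0.175 and 0.243, limma). *Snai1*, with a mean of 7.07 ± 0.67 and 6.34 ± 0.68 TPM (SD, n = 3 wells), and *Zeb1*, with 53.8 ± 26.4 and 43.6 ± 21.6 TPM, overlapped between the groups. *Vim*, which encodes the mesenchymal filament protein vimentin, measured 3374, 4553 and 3603 TPM in OSKA − 4OHT wells and 2863, 3065 and 2075 TPM in OSKA + 4OHT wells. All OSKA + 4OHT wells were lower, and its log2 fold change of -0.53 was not called (adjusted p = 0.163, limma). *Vim* therefore remained far above every keratin member, per transcript length, in all 6 wells.

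Markers of the cell types a well could hold were read beside these genes. The summed level of 6 fibroblast markers, mostly *Vim*, *Col1a1* and *Col1a2*, was 5833 to 7656 TPM in OSKA − 4OHT and 3756 to 5027 TPM in OSKA + 4OHT wells. Of these, 1 was called (*Pdgfrb*, lower), beside 1.37% of all tested genes called lower. *Pdgfrb* kept its call in 3 of the 6 fits that left out a well (adjusted p up to 0.0576, limma). *Col1a2* (log2 fold change -0.88, adjusted p = 0.0285, limma) missed only the fold threshold, and *Col1a1* (-0.66, adjusted p = 0.0843, limma) was lower without overlap. *Thy1* was on average 1.63-fold higher in OSKA + 4OHT wells without overlap (adjusted p = 0.203, limma), and *Pdgfra* overlapped between the groups at 4.80 to 6.50 and 4.78 to 5.79 TPM. Of 5 pluripotency markers, 4 were called higher (*Nanog*, *Zfp42*, *Dppa5a* and *Tdgf1*), beside 2.87% of all tested genes. However, *Nanog*, *Zfp42*, *Dppa5a* and the uncalled *Esrrb* averaged under 1 TPM in OSKA − 4OHT wells. They reached the minimum for a test only through the OSKA + 4OHT wells. The sum of the 5 was between 2.87 and 3.69 TPM in OSKA − 4OHT and between 34.6 and 49.95 TPM in OSKA + 4OHT wells. In the 6 fits that left out a well, *Dppa5a* was called in 6, *Tdgf1* in 2, and *Nanog* and *Zfp42* in 1 each. Sums of the other lists are given for OSKA − 4OHT and then OSKA + 4OHT wells. No gene of these lists was called by limma, but only 1 gene each of the trophoblast, basal keratinocyte, endothelial and skeletal muscle lists, 2 mesothelial and 5 macrophage markers reached the minimum for a test. Of these, *Gata3*, *Krt14* and *Lyz2* had an unadjusted p-value under 0.05, as had 3281 of all 15382 tested genes. *Lyz2*, the most abundant macrophage marker, was lower in OSKA + 4OHT wells (log2 fold change -0.88, adjusted p = 0.0299, limma) and missed only the fold threshold, whereas *Cd68* overlapped between the groups. The sums were 1.46 to 2.26 and 7.96 to 14.5 TPM for 5 trophoblast markers, of which *Cdx2* was at 0 in every well, and 4.56 to 17.2 and 21.1 to 26.9 TPM for 4 basal keratinocyte markers, mostly *Krt14*. They were 116 to 131 and 71.7 to 82.5 TPM for 5 macrophage markers and 532 to 1011 and 231 to 628 TPM for 4 mesothelial markers, the latter overlapping. For 4 endothelial markers they were 9.07 to 12.2 and 6.87 to 14.7 TPM, and overlapped. For 4 skeletal muscle markers, of which *Myod1* and *Myog* were at 0 in every well, they were 0.65 to 10.7 and 0.53 to 0.82 TPM, and overlapped. Among the trophoblast markers not tested, *Tfap2c* averaged 0.07 and 1.52 TPM, and *Elf5* was listed at 0 in OSKA − 4OHT wells and averaged 1.58 TPM in OSKA + 4OHT wells, both without overlap. The part of these cell types in the levels of the epithelial genes was not tested.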

How the data were processed

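Total RNA of the 6 wells was made into stranded polyA libraries and read as 50-bp single ends. The authors trimmed the reads with Trim Galore and quantified them with Salmon, and deposited TPM values for each gene in each well. These add up to 1000000 in a well and keep no depth. The annotation and the tool versions are not given in the sources used here. The authors also deposited columns of their own comparison, a log2 fold change, a log2 average level, a score (F statistic) and a p-value, which were not used.

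Symbols and positions came from the GENCODE M21 annotation (GRCm38), in which 54097 of the 54331 Ensembl identifiers had an entry. The authors' release may be another. Differences were tested with limma 3.58.1 (trend) in R 4.3.3 on log2(TPM + 0.5). Genes averaging under 1 TPM were left out, which kept 15382, with Benjamini-Hochberg adjustment over all of them and no block. The average ran over all wells, so a gene low in OSKA − 4OHT wells could pass through its OSKA + 4OHT wells, or the reverse. On simulated data with 200 of 15382 genes changed, the test called 16%, 37.5% and 61% of those with a log2 fold change of 1.5, 2 and 3. In the simulation, residual SDs were drawn at random across genes, and fewer genes were changed than the 441 higher and 210 lower called here. These shares may therefore not hold for the data, in which true changes of this size can be missed. Wells are labelled as replicates, and as they were plated from transduced cells at 3 dpi, p-values measure the spread between wells, which may be technical. An exact permutation test of 3 wells against 3 cannot give a 2-sided p-value under 0.1.

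The members and the lists were chosen with earlier results of these data known. By the rule for named genes, every member is accounted for, with the values of each well for those called and for those without overlap and a mean of at least 5 TPM in a group. Of the other lists, called genes and *Snai1*, *Snai2*, *Zeb1*, *Zeb2*, *Twist1*, *Cdh2* and *Vim* are named. Further values, and further genes of the other lists, were added after they had been seen. BLAST 2.17.0 was used to look for near-identical transcripts (at least 95% identity over 100 bases). A pseudogene, *Krt8-ps*, matches *Krt8* at 98.6% over 941 bases and was listed at 0 in every well. Tables were made with Python 3.11.15 and pandas 2.3.3. Alternatives were other pseudocounts, filters, scalings and variance models, the replicate block, and leaving out each well.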

Additional observations from a re-analysis of the deposited data

How the results depend on the processing

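The number of members called higher, 6, was between 5 and 7 with a pseudocount of 0.1 or 2, no filter on low values, a minimum of 5 TPM, either other scaling, limma without trend, or the adjusted p-value alone. *Krt7* was added with a pseudocount of 0.1 and *Cldn4* with 2, and *Epcam* was lost without the filter and without the trend. Leaving out 1 well gave between 2 and 5 members, between 2 and 5 other epithelial genes, and a median log2 fold change of the members between 0.96 and 1.27. The lowest counts came without OSKA + 4OHT replicate 1, and the members numbered 3 without OSKA − 4OHT replicate 1 or 2 or OSKA + 4OHT replicate 2. Over all genes, leaving out a well gave between 134 and 307 called higher, against 441. The log2 fold changes that changed sign ran from -0.0771 to 0.0768 for *Pkp2*, from -0.16 to 1.61 for *Cldn7*, from -0.82 to 0.63 for *Llgl2* and from -0.14 to 0.85 for *Patj*. *Pkp2* was at -0.11 when scaled by the trimmed mean of log ratios and at -0.18 with quantile normalization. These scalings moved the median of all genes from 0.14 to 0.03 and -0.005, and that of the members from 0.98 to 0.89 and 0.79, and the share of higher among all called genes from 67.7% to 55.1% and 53.1%. No member was called lower in any of these fits.

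Wells with the same replicate number had correlated deviations of 0.0235, 0.0341 and 0.0837 and were not taken to be paired. Each OSKA − 4OHT well correlated best with the OSKA + 4OHT well of its number, but OSKA + 4OHT replicate 1 correlated best with OSKA − 4OHT replicate 2 (0.0327). With the replicate block, 1 member (*Pkp1*, adjusted p = 0.0499, limma) and 0 other epithelial genes were called, and 31 genes higher and 16 lower over all genes, with 441 and 210 without it. The depth is unknown, so no limit can be set for values listed at 0.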
